A study of Mus musculus with 19 samples.

Results

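The 9 genes of the urea cycle that were examined encode the 5 enzymes of the cycle itself (Cps1, Otc, Ass1, Asl and Arg1), the enzyme that makes the activator of CPS1 (Nags), a pair of mitochondrial carriers (Slc25a15 and Slc25a13) and glutamate dehydrogenase (Glud1). They were taken by symbol from a table of 54838 mouse genes, each symbol matched 1 gene, and all 9 passed the filter on low values that left 14743 genes for testing. Expression was measured by RNA-seq of poly-A RNA in 19 livers of male C57BL/6JOlaHsd mice that were 4 weeks old at the start, with 1 library per mouse. Mice on the Western diet (WD) received saline (n = 3), AN1284 at 1 mg/kg/day (n = 4) or AN1284 at 5 mg/kg/day (n = 3). Mice on the normal diet (ND) received saline, 1 mg/kg/day or 5 mg/kg/day (n = 3 each). The WD is rich in fat, sucrose, fructose and cholesterol and poor in choline. By the paper's account it also holds less protein than the ND. The components of the diets were not tested singly. The diets were fed for 4 months. Saline or AN1284, an indoline derivative, was delivered by implanted micro-osmotic pumps over the final 8 weeks, so every group, saline included, carried a pump.

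The urea cycle turns ammonia, which is toxic, into urea, and it runs at full capacity only in hepatocytes, mainly those around the portal vein. CPS1 joins ammonia to bicarbonate in the mitochondrion once NAGS has supplied N-acetylglutamate, and OTC joins the product to ornithine to give citrulline. Citrulline leaves the mitochondrion through the carrier SLC25A15, ASS1 couples it to aspartate that SLC25A13 exports, ASL splits off fumarate, and ARG1 releases urea and returns ornithine. Glutamate dehydrogenase lies upstream, where it releases ammonia from glutamate and is shared with other pathways.

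The genes sit on 9 different chromosomes and their promoters are unlike each other in base composition. In GRCm38 the positions given in the table are chromosome 1, 67123026 to 67231259 for Cps1, chromosome X, 10252305 to 10321024 for Otc, chromosome 2, 31470207 to 31520672 for Ass1, chromosome 5, 130011258 to 130029247 for Asl and chromosome 10, 24915221 to 24927484 for Arg1. Nags lies on chromosome 11, 102145513 to 102149477, Slc25a15 on chromosome 8, 22375551 to 22398597, Slc25a13 on chromosome 6, 6041218 to 6217173, and Glud1 on chromosome 14, 34310727 to 34345265. RefSeq promoter windows of 300 bases (GRCm38.p6) were matched for 6 of the 9 genes, Otc, Ass1, Nags, Slc25a15, Slc25a13 and Glud1. Their GC content was 44.3% for Otc, 57.7% for Nags, 65.0% for Slc25a13, 74.0% for Ass1 and 81.0% for Glud1, and 60.7% and 79.0% at the start sites of Slc25a15. The 150 bases just before the start site are shown for 3 genes that behaved differently in the livers described below, namely Otc, which fell strongly on the WD, Nags, which fell less, and Glud1, which did not pass the test. They are chrX:10252155-10252304, chr11:102145363-102145512 and chr14:34310577-34310726, all on the plus strand, and capitals mark a GC box (GGGCGG on either strand).
Otc: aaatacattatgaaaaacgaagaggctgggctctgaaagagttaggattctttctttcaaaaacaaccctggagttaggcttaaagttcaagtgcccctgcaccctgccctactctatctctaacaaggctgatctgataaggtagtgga
Nags: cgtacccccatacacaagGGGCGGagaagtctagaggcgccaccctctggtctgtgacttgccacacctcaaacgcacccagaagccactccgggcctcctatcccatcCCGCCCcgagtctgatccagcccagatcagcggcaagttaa
Glud1: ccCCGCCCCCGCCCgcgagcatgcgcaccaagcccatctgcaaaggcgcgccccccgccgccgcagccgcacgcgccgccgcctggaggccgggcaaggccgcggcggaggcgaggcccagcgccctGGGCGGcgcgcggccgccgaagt
The GC box occurred in 4 of the 6 genes, Ass1, Nags, Slc25a15 and Glud1, and in 35.7% of all 32851 RefSeq windows of this length. The CCAAT box (CCAAT) occurred in Slc25a13 alone among them and in 37.4% of all windows. Neither the C/EBP motif TTGCNNAA, in 10.8% of all windows, nor the TATA box TATAAA, in 13.6%, occurred in any of the 6 genes. Motifs were searched on both strands over the whole 300 bases, including any overlapping matches, and such letters do not show that a factor is bound.

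The libraries held 23326800 to 32596067 counted reads. Values are the counts that the authors divided by 1 size factor per library. The size factor ranged over 0.759 to 0.791 in ND saline, below the 0.817 to 1.27 of the other 16 libraries. Dividing by total counts instead shifted all genes, at their median, by 0.45 log2 units for WD saline against ND saline. The shift was −0.23 for each dose on the WD against WD saline. It was 0.15 to 0.20 for the 4 treated groups against ND saline, so comparisons with either saline group depend on the scaling. Tests were made with limma on log2(normalized count + 1), so fold changes are on that scale, and an adjusted p (Benjamini-Hochberg, over all genes tested) under 0.05 passed. The p-values measure the spread between mice. Per exon length, the cycle was led by Ass1, at 491 ± 97.6 reads per kilobase of exon and per 1e+06 counted reads in WD saline livers and 1717 ± 136 in ND saline livers (SD, n = 3 each). Nags was the lowest of the 9 in every group, at 17.7 ± 1.82 in WD saline and 23.5 ± 2.06 in ND saline livers. On this scale Glud1 ranked 2 of 9 in WD saline livers and 4 of 9 in each other group.

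**Figure D1:**
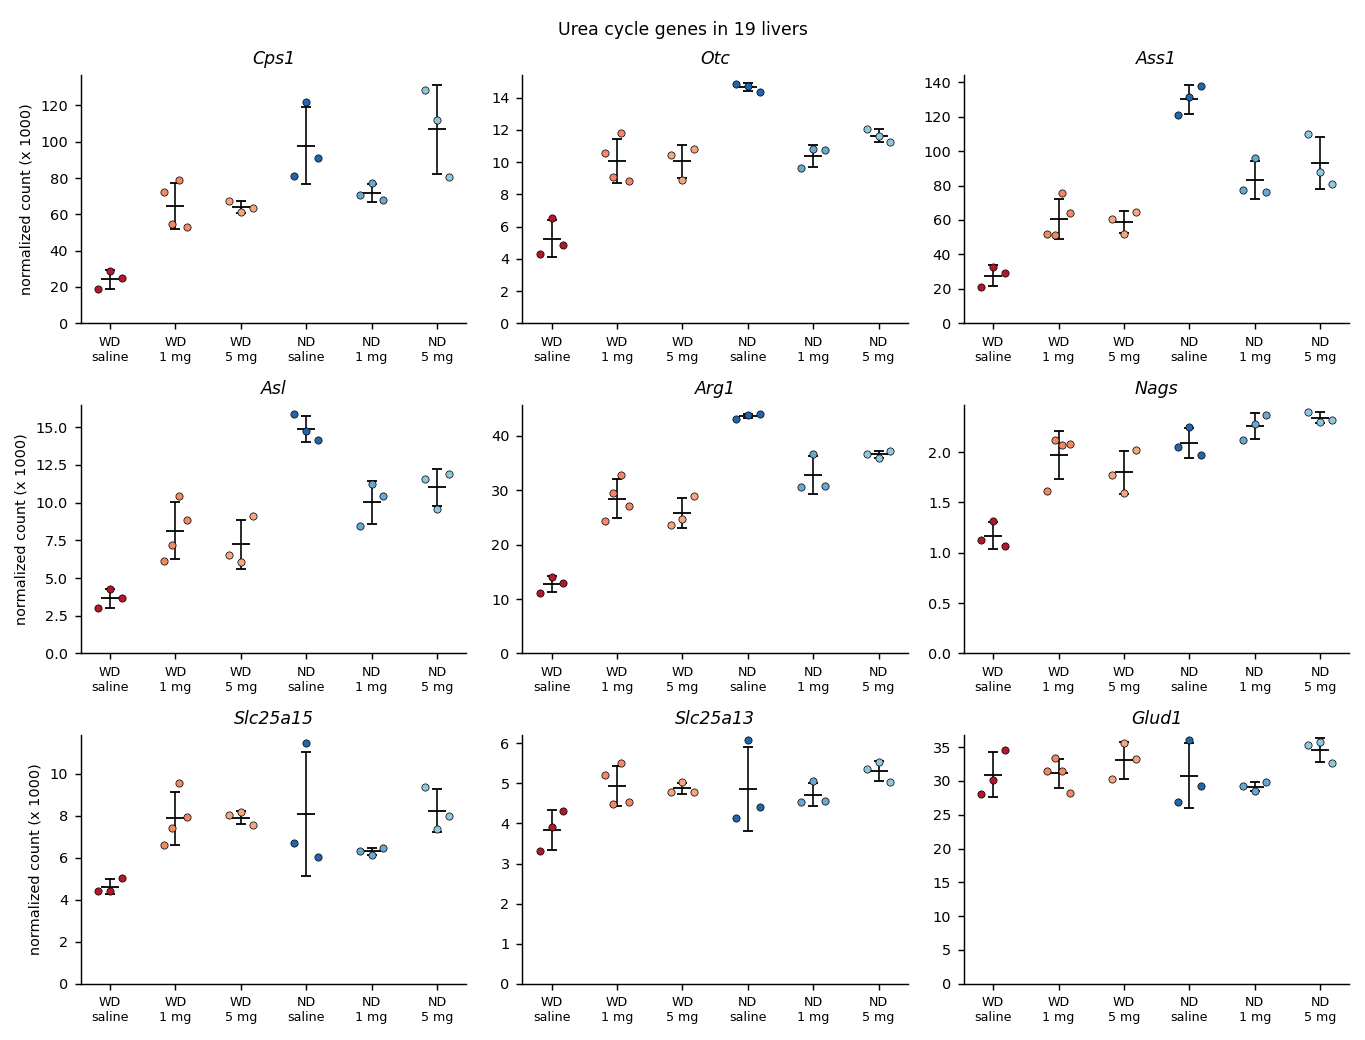
Normalized counts (in units of 1000, axes from 0) of the 9 urea cycle genes in 19 livers, with 1 point per mouse and the mean ± SD of each group. For Cps1, Otc, Ass1, Asl, Arg1, Nags and Slc25a15 all WD saline livers lay below all ND saline livers, as were 29.4% of all genes tested. For these genes and Slc25a13 they also lay below all WD livers given AN1284. Of all genes, 15.0% were so placed at 1 mg/kg/day and 16.2% at 5 mg/kg/day. For Glud1 the WD saline livers overlapped the ND saline livers and the WD livers of each dose.

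The first question was what the WD did to the cycle. In WD saline livers, compared with ND saline livers, all 5 enzymes of the cycle were lower, as were Nags and both carriers. Glud1 did not pass. Of the 9 genes 8 passed as lower and 0 as higher, while 25.0% of all genes tested passed as lower and 28.1% as higher, 53.0% in either direction. The median log2 fold change was −1.50 over the 9 genes and 0.01 over all genes tested.

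Cps1 had 18846, 28981 and 24713 normalized counts in the WD saline livers, against 80929, 121980 and 90844 in the ND saline livers. The groups were far apart, and Cps1 fell by 2.02 in log2 units (SE 0.20, limma adjusted p = 4.02e-07). Otc had 4322, 6554 and 4869 counts in WD saline livers, against 14858, 14703 and 14371 in ND saline livers. The ND saline values lay within a narrow range and the fall was 1.50 (SE 0.14, limma adjusted p = 1.73e-07). Ass1, whose product catalyses the entry of the second nitrogen, had 21112, 32894 and 29036 counts in WD saline livers, against 121034, 131446 and 137811 in ND saline livers. It showed the largest fall of the 9 genes, 2.25 (SE 0.18, limma adjusted p = 3.77e-08). Asl had 2995, 4276 and 3663 counts in WD saline livers, against 15843, 14734 and 14142 in ND saline livers, a fall of 2.05 (SE 0.19, limma adjusted p = 1.72e-07). Arg1 had 11130.0, 14053 and 12999 counts in WD saline livers, against 43165, 43824 and 43948 in ND saline livers. Its fall of 1.78 (SE 0.12, limma adjusted p = 1.21e-08) was the 21st smallest p among the 14743 genes.

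The activator gene and the carriers fell less. Nags had 1131, 1319.8 and 1063 counts in WD saline livers, against 2051, 2252 and 1968 in ND saline livers, and fell by 0.84 (SE 0.12, limma adjusted p = 1.59e-05). Nags overlaps the antisense gene Gm11586, which had 18 to 52 reads per library, and whether strand was used in counting is not given in the sources used here, so reads of the pair cannot be told apart. Slc25a15, the ornithine and citrulline carrier, had 4405, 4402 and 5019 counts in WD saline livers, against 6719, 11480 and 6043 in ND saline livers. The groups did not overlap, but replicate 2 stood high among the ND saline livers, and the fall was 0.75 (SE 0.18, limma adjusted p = 0.00191). Slc25a13, the aspartate carrier, had 3321, 3899 and 4318 counts in WD saline livers, against 4126, 6072 and 4399 in ND saline livers. These ranges overlapped and the fall of 0.33 (SE 0.13) passed narrowly, with limma adjusted p = 0.0452. It no longer passed without ND saline replicate 2 (fell by 0.16, limma adjusted p = 0.281), WD saline replicate 1 (0.208) or WD saline replicate 2 (0.0727). Glud1 had 28079, 30120.3 and 34564 counts in WD saline livers, against 26853, 36110 and 29332 in ND saline livers, a log2 difference of 0.01 (95% interval −0.24 to 0.26, limma adjusted p = 0.934).

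Scaling the libraries by their total counts moved the median of all genes to a log2 fold change of 0.45. All 5 enzymes and Nags still fell under it, by 1.59 for Cps1, 1.07 for Otc, 1.82 for Ass1, 1.61 for Asl, 1.35 for Arg1 and 0.41 for Nags. Slc25a15 then fell short of the threshold (log2 fold change −0.32, limma adjusted p = 0.121), Slc25a13 changed sign (0.11, limma adjusted p = 0.53) and Glud1 passed as higher (0.45, limma adjusted p = 0.00538), each of these 3 being close to or below the shift of all genes. Of all genes, 7631 passed as higher and 1343 as lower under this scaling, against 4136 higher and 3684 lower with the authors' size factors.

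A measure that needs no scaling between libraries is the summed reads of the 5 enzymes divided by the Glud1 reads of the same library. This ratio was 2.08, 2.88 and 2.18 in the WD saline livers, against 10.3, 9.05 and 10.3 in the ND saline livers. As a share of all counted reads the 5 enzymes made up 0.315 ± 0.0552% in WD saline livers and 0.960 ± 0.102% in ND saline livers (SD, n = 3 each). Glud1 made up 0.133 ± 0.0132% in WD saline livers and 0.0982 ± 0.0174% in ND saline livers (SD, n = 3 each). The WD saline and ND saline libraries did not overlap in this ratio, which is the same under every scaling.

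**Figure D2:**
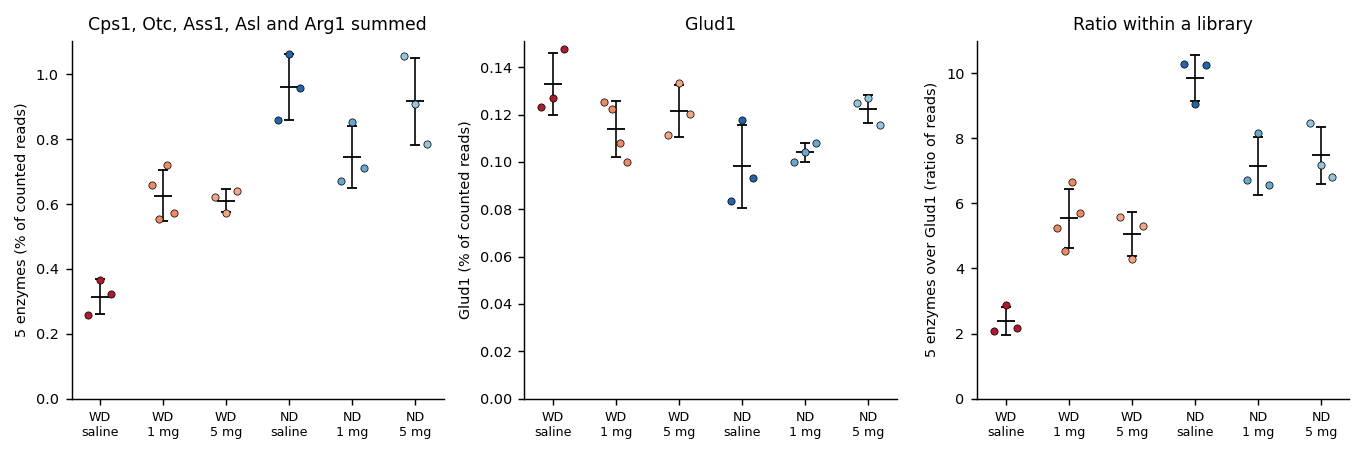
Summed reads of Cps1, Otc, Ass1, Asl and Arg1 as a percentage of all counted reads, Glud1 on the same scale, and the ratio of the sum to Glud1 within a library, with 1 point per mouse and the mean ± SD of each group. The ratio lay at 2.08 to 2.88 in WD saline livers, 4.28 to 6.67 in WD livers given AN1284 and 6.57 to 10.3 in all ND livers.

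The cell types of the liver moved with the diet as well. Hepatocyte markers were present at high level in every library, and 8 of the 9 found in the table were lower and 1 was higher on the WD, with sums of 1754340 to 2070760 normalized counts in WD saline and 3910570 to 4095310 in ND saline livers. Of 7 periportal markers 5 were lower, with sums of 45236 to 61353 in WD saline and 197604 to 215337 in ND saline livers, and of 7 pericentral markers 5 were lower and 1 was higher, with sums of 134812 to 167281 in WD saline and 242812 to 261005 in ND saline livers. Of the other cell types, 7 of 7 macrophage, 6 of 7 stellate cell and fibroblast, 4 of 4 endothelial and 3 of 6 cholangiocyte markers were higher in WD saline livers and 0 of 4 T and B cell markers passed, while 28.1% of all genes passed as higher and 25.0% as lower. The stellate and fibroblast sum was 16890 to 23766 in WD saline livers and 5513 to 8342 in ND saline livers. In whole liver, fewer hepatocytes and less of a transcript per hepatocyte cannot be told apart. The part of these markers in the fall of the cycle genes was not tested. The 5 enzymes summed to 3.93 ± 0.523% of the 9 hepatocyte markers in WD saline livers and 7.57 ± 0.811% in ND saline livers (SD, n = 3 each). Most of that marker sum was Alb, which encodes albumin and fell by 1.15, while the hepatocyte markers Tat fell by 3.14 and Serpina1c fell by 2.74, each more than any of the 9 genes.

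The next question was whether AN1284 changed the cycle in mice on the WD. At 1 mg/kg/day, all 5 enzymes, Nags and both carriers were higher than in WD saline livers, 8 of 9 genes, while 10.3% of all genes tested passed as higher. The median log2 fold change was 0.95 over the 9 genes and 0.01 over all genes. At 5 mg/kg/day the same genes except Slc25a13 passed, 7 of 9, while 5.51% of all genes passed as higher, and the median was again 0.95, against −0.01 over all genes. None of the 9 was lower, which 12.6% of all genes were at 1 mg/kg/day and 7.03% at 5 mg/kg/day. Both doses were set against the same 3 WD saline livers, so the results at the doses are not independent of each other.

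Cps1 had 72304, 54552, 78747 and 52795 normalized counts in the WD livers given 1 mg/kg/day and 67279, 61064 and 63624 in those given 5 mg/kg/day, above every WD saline liver. It rose 2.67-fold (log2 1.42, SE 0.19, limma adjusted p = 3.4e-05) and 2.69-fold (log2 1.43, SE 0.20, limma adjusted p = 0.000174) at the lower and the higher dose. Otc had 10567, 9078, 11809 and 8822 counts at 1 mg/kg/day and 10433, 8908 and 10796 at 5 mg/kg/day, a rise of log2 0.95 at each dose (SE 0.13 and 0.14). The treated livers of both doses overlapped each other and lay clear of the WD saline livers, whose highest Otc value was 6554. Ass1 had 51692, 51164, 75867 and 63915 counts at 1 mg/kg/day and 60743, 51999 and 64462 at 5 mg/kg/day, with rises of 1.14 (SE 0.17) and 1.11 (SE 0.18). Asl had 6131, 7219, 10429 and 8819 counts at 1 mg/kg/day and 6556, 6036 and 9094 at 5 mg/kg/day, with rises of 1.15 (SE 0.18) and 0.98 (SE 0.19). Arg1 had 24292, 29491, 32763 and 27143 counts at 1 mg/kg/day and 23651, 24712 and 28939 at 5 mg/kg/day. Its standard errors were the smallest among the 5 enzymes, and its rises were 1.16 (SE 0.12, limma adjusted p = 2.08e-06) and 1.02 (SE 0.12, limma adjusted p = 4.86e-05).

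Nags had 1615, 2123, 2074 and 2080 counts at 1 mg/kg/day and 1774, 1597 and 2021 at 5 mg/kg/day, with rises of 0.75 (SE 0.11) and 0.62 (SE 0.12). Slc25a15 had 6590.5, 7411, 9565 and 7914 counts at 1 mg/kg/day and 8008, 8163 and 7547 at 5 mg/kg/day, with rises of 0.76 (SE 0.17) and 0.78 (SE 0.18). Slc25a13 had 5205, 4489, 5518 and 4547 counts at 1 mg/kg/day and 4792, 5038 and 4787 at 5 mg/kg/day. For these 3 genes, too, every treated liver was above every WD saline liver, and so were 8 of the 9 genes at each dose, while 15.0% of all genes were so placed at the lower dose and 16.2% at the higher. The size of the Slc25a13 difference was small, at log2 0.36 (SE 0.12, limma adjusted p = 0.0408) and 0.35 (SE 0.13, limma adjusted p = 0.095). At 1 mg/kg/day it fell short of the threshold without WD saline replicate 1 (log2 0.26, limma adjusted p = 0.216), WD saline replicate 2 (0.0763), or replicate 1 (0.0717) or replicate 3 (0.115) of the treated group. Glud1 had 28261 to 33463 counts at 1 mg/kg/day and 30258 to 35646 at 5 mg/kg/day, with log2 differences of 0.01 (95% interval −0.22 to 0.25) and 0.10 (95% interval −0.15 to 0.35). Under scaling by totals Slc25a13 no longer passed at 1 mg/kg/day (log2 0.13, limma adjusted p = 0.484), and the other calls at both doses were kept. This scaling shifted all genes by −0.23 at each dose, against the direction of these calls.

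The ratio of the 5 enzymes to Glud1 was 5.25, 4.53, 6.67 and 5.71 in WD livers given 1 mg/kg/day and 5.57, 4.28 and 5.32 in those given 5 mg/kg/day, all above the highest WD saline value of 2.88. Of the hepatocyte markers 8 of 9 were higher at the lower dose and 6 of 9 at the higher, beside 10.3% and 5.51% of all genes. Of 7 periportal markers 5 were higher and 1 was lower at the lower dose and 4 were higher at the higher dose, and of 7 pericentral markers 4 were higher at each. Of 7 stellate cell and fibroblast markers 6 and 4 were lower at these doses, and of 6 cholangiocyte markers 6 and 3, beside 12.6% and 7.03% of all genes. Of 7 macrophage markers 1 was higher and 2 were lower at 1 mg/kg/day and 1 was lower at 5 mg/kg/day. Gpnmb, a glycoprotein of lipid-laden macrophages, was the one lower at both doses, with 40.8 ± 35.9 normalized counts (SD, n = 4) and 128 ± 118 (SD, n = 3), against 805 ± 189 in WD saline livers (SD, n = 3). Of 4 endothelial markers 1 was lower at each dose, and 0 of 4 T and B cell markers passed. The 5 enzymes summed to 6.23 ± 1.17% (SD, n = 4) of the hepatocyte markers at 1 mg/kg/day and 6.69 ± 0.348% (SD, n = 3) at 5 mg/kg/day, against 3.93 ± 0.523% (SD, n = 3) in WD saline livers. The part of the markers in the rise was not tested.

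**Figure D3:**
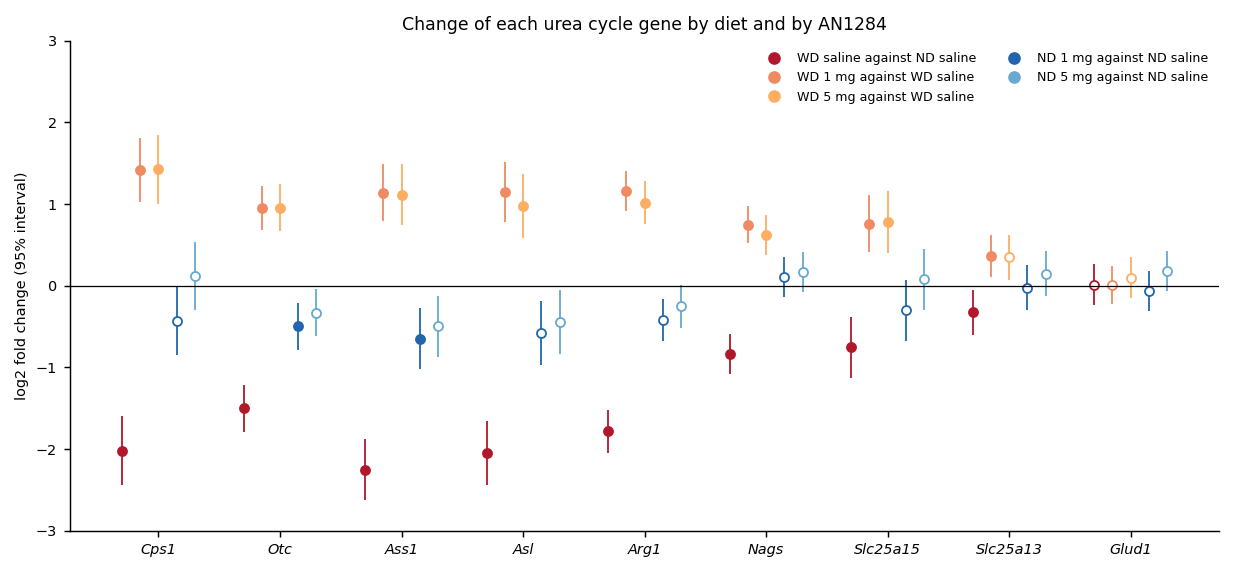
Log2 fold change of each urea cycle gene on log2(normalized count + 1), with 95% intervals, for the WD and for both doses on each diet. Filled points passed at an adjusted p under 0.05 and open points did not. On the WD comparison 8 genes lay below 0, at −0.33 to −2.25, with AN1284 on the WD the same 8 lay above 0, at 0.35 to 1.43, and Glud1 lay between −0.07 and 0.18 in all 5.

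A 5-fold higher dose gave no detectable further change on the WD. Between 5 mg/kg/day and 1 mg/kg/day 0 of 9 genes passed limma, 0 had an unadjusted p under 0.05, and voom called 0, while 0% of all genes tested passed. The log2 differences ran from −0.17 for Asl to 0.09 for Glud1. Their 95% intervals reached from −0.53 for Asl to 0.40 for Cps1, so differences of this size remain possible.

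AN1284 brought the genes different parts of the way to the ND saline level. On the linear scale, the mean of Ass1 made up 32.2% of the difference between WD saline and ND saline livers at 1 mg/kg/day and 30.6% at 5 mg/kg/day. Asl made up 40.0% and 31.8%, Arg1 50.8% and 42.2%, Otc 51.3% and 51.1% and Cps1 54.8% and 54.0%. Nags made up 87.2% and 68.1%. The shares of Slc25a15, 93.9% and 94.97%, and of Slc25a13, 107% and 101%, rested on ND saline replicate 2, and without it they were 184% and 186% for Slc25a15 and 263% and 247% for Slc25a13. These shares hold the same WD saline means on both sides of the fraction and are given as a description.

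Set directly against ND saline, the WD livers given AN1284 were still lower in the 5 enzymes and in none of the other genes, 5 of 9 at each dose, while 13.5% of all genes passed as lower at 1 mg/kg/day and 14.1% at 5 mg/kg/day. Ass1 was lower by the most, with log2 fold changes of −1.12 (SE 0.17, limma adjusted p = 0.000138) and −1.14 (SE 0.18, limma adjusted p = 0.000264), followed by Asl at −0.90 and −1.07 and Arg1 at −0.63 and −0.77. Otc stood at −0.55 at each dose. For these 5 genes no treated WD liver reached the lowest ND saline liver, and 15.7% and 20.1% of all genes were placed below in this way at the lower and the higher dose. Cps1 was at −0.60 (SE 0.19, limma adjusted p = 0.0212) and −0.59 (SE 0.20, limma adjusted p = 0.0317), and this was the least firm of the calls. At 1 mg/kg/day it was lost without ND saline replicate 2 (log2 −0.43, limma adjusted p = 0.109), or replicate 2 (0.061) or replicate 4 (0.0593) of the treated group, and at 5 mg/kg/day without any library but ND saline replicate 1 (limma adjusted p of 0.0567 to 0.132). Under scaling by totals Cps1 did not pass at either dose (limma adjusted p = 0.109 and 0.15), nor did Otc at 5 mg/kg/day (0.0622). Nags, Slc25a15, Slc25a13 and Glud1 had log2 differences from ND saline of −0.22 to 0.11, with adjusted p from limma of 0.156 to 0.977. Cell type markers differed from ND saline as well. At 1 mg/kg/day 6 of 9 hepatocyte, 2 of 7 pericentral and 3 of 6 cholangiocyte markers were lower. Of 7 periportal markers 3 were lower and 1 was higher. Higher were 6 of 7 macrophage, 3 of 4 endothelial and 1 of 7 stellate cell and fibroblast markers, as were 16.9% of all genes. The higher dose had 6 of 9 hepatocyte markers lower and 1 higher. Of 7 periportal markers 5 were lower and 1 was higher, and of 7 pericentral markers 1 was lower and 1 higher. Higher were 7 of 7 macrophage, 3 of 4 endothelial and 1 of 7 stellate cell and fibroblast markers, as were 16.7% of all genes. Of 6 cholangiocyte markers 0 passed, and of 4 T and B cell markers 0 passed at either dose. Their part in the difference was not tested.

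On the ND none of the 9 genes passed as higher at either dose. At 1 mg/kg/day Otc and Ass1 were lower than in ND saline livers, 2 of 9 genes, while 1.74% of all genes passed as lower and 4.63% in either direction. Otc had 9609, 10828 and 10739 normalized counts, against 14858, 14703 and 14371 in ND saline livers, a fall of 0.50 (SE 0.14, limma adjusted p = 0.0456). Ass1 had 77108, 96161 and 76497 counts, against 121034, 131446 and 137811 in ND saline livers, a fall of 0.65 (SE 0.18, limma adjusted p = 0.0428). Arg1 had 30559.7, 36746 and 30845 counts, against 43165, 43824 and 43948 in ND saline livers, and its log2 fold change of −0.42 did not pass (limma adjusted p = 0.059), nor did those of Asl at −0.58 (0.0805) and Cps1 at −0.43 (0.236). Nags at log2 0.11, Slc25a15 at −0.30, Slc25a13 at −0.03 and Glud1 at −0.07 did not pass either. In all 5 enzymes every liver given 1 mg/kg/day was nonetheless below every ND saline liver, as were 8.36% of all genes. Both calls were close to the threshold. That of Otc was lost without any 1 of the 6 libraries (limma adjusted p of 0.0601 to 0.14) and that of Ass1 without any but ND AN1284 1 mg/kg/day replicate 2 (0.0652 to 0.118). Under scaling by totals and with voom 0 of 9 genes passed.

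At 5 mg/kg/day on the ND 0 of 9 genes passed limma, while 10.2% of all genes did in either direction. Otc, Ass1 and Asl had an unadjusted p under 0.05, 3 of 9, and voom called 0. The log2 fold changes ran from −0.49 for Ass1 (95% interval −0.87 to −0.12, limma adjusted p = 0.0804) to 0.18 for Glud1. Arg1 had 36616, 35980.2 and 37295 counts, against 43165, 43824 and 43948 in ND saline livers. In 4 of the 9 genes, Otc, Ass1, Asl and Arg1, every treated liver was below every ND saline liver, as in 14.6% of all genes. In 1 of the 9, Nags (log2 0.16), every treated liver was above, as in 14.7% of all genes. Cps1 had 128621, 111822 and 80422 counts, against 80929, 121980 and 90844 in ND saline livers, and these overlapped. Slc25a15 (log2 0.08), Slc25a13 (log2 0.15) and Glud1 overlapped as well. Between 5 mg/kg/day and 1 mg/kg/day on the ND 0 of 9 genes passed limma and voom called 0, with 2 of 9 at an unadjusted p under 0.05, while 0.0407% of all genes passed. Those 2 were Cps1, at a log2 difference of 0.55 (95% interval 0.13 to 0.97), and Slc25a15, at 0.38. All 9 log2 differences were above 0, the lowest being 0.05 for Nags. Their median was 0.17, against −0.0003 over all genes. In 4 of the 9 genes, Cps1, Otc, Slc25a15 and Glud1, every 5 mg/kg/day liver was above every 1 mg/kg/day liver, as in 7.11% of all genes. Every such liver was below in 0 of the 9, as in 7.77% of all genes. Of the markers, 1 of 9 hepatocyte and 1 of 7 periportal markers were lower than in ND saline livers at each dose. Of 7 pericentral markers 2 were lower at 1 mg/kg/day and 1 at 5 mg/kg/day, while 1.74% and 3.89% of all genes were lower. Of 4 T and B cell markers 1 was higher at 5 mg/kg/day and 0 passed at 1 mg/kg/day. At 5 mg/kg/day 4 of 7 macrophage and 2 of 4 endothelial markers were higher than in ND saline livers, as were 6.27% of all genes, and at 1 mg/kg/day 0 of these 11 passed, against 2.90% of all genes. Their part was not tested.

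The change with AN1284 on the WD minus that on the ND was then tested as an interaction term. At 1 mg/kg/day it passed as higher for 7 of 9 genes, all but Slc25a13 and Glud1, while 9.39% of all genes passed as higher. At 5 mg/kg/day it passed for the 5 enzymes, while 8.54% of all genes passed as higher. For Ass1 the interaction was log2 1.79 (SE 0.24, limma adjusted p = 9.12e-05) and 1.61 (SE 0.25, limma adjusted p = 0.000611). For Arg1 it was 1.58 (SE 0.17, limma adjusted p = 1.75e-05) and 1.27 (SE 0.18, limma adjusted p = 0.000208). Nags and Slc25a15 missed the threshold at 5 mg/kg/day, with log2 values of 0.45 (limma adjusted p = 0.059) and 0.70 (limma adjusted p = 0.057). Under scaling by totals Nags did not pass at 1 mg/kg/day either (log2 0.24, limma adjusted p = 0.216), and the other calls were kept. The interaction also passed as higher for 8 and 6 of 9 hepatocyte markers and for 5 of 7 periportal markers at each dose. Of 7 pericentral markers it passed as higher for 4 at the lower and 3 at the higher dose. It passed as lower for 5 of 7 stellate cell and fibroblast markers at each dose and for 3 and then 2 of 6 cholangiocyte markers. Lower as well were 2 and then 5 of 7 macrophage markers and 1 and then 3 of 4 endothelial markers, while 11.3% and 11.6% of all genes passed as lower. The part of these markers was not tested.

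In the order of group means, WD saline was the lowest group for 8 of the 9 genes. For Otc, Ass1, Asl and Arg1 the order from the top was ND saline, ND 5 mg/kg/day, ND 1 mg/kg/day, WD 1 mg/kg/day, WD 5 mg/kg/day and WD saline. For these 4 genes ND saline was clear of the next group and WD saline of the group above it, while the libraries of the treated WD groups overlapped each other. Of all genes, 14.6% had every ND 5 mg/kg/day liver below every ND saline liver. Every WD 5 mg/kg/day liver was above every WD saline liver in 16.2% of all genes. Cps1, Nags, Slc25a15, Slc25a13 and Glud1 had ND 5 mg/kg/day on top, with means of 106955, 2339, 8242, 5313 and 34592 normalized counts. In each of them the libraries of that group overlapped those of the next group. For Glud1 the 6 group means lay between 29170 and 34592, and each group overlapped the next.

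The other genes of the pathway were taken from a list of 38, of which 35 were tested. In WD saline livers compared with ND saline 23 of them were lower and 4 higher, with a median log2 fold change of −0.71, while 25.0% of all genes were lower and 28.1% higher. In treated WD livers 18 were higher and 0 lower at the lower dose, and at the higher dose 11 were higher and 0 lower, while 10.3% and 5.51% of all genes were higher. On the ND 1 was higher and 3 were lower at the lower dose, and at the higher dose 1 was higher and 2 were lower, while 1.74% and 3.89% of all genes were lower. Under scaling by totals 36 were tested, of which 13 were lower and 10 higher on the WD. At 1 mg/kg/day on the WD 14 were higher and 5 lower, and at 5 mg/kg/day 9 were higher and 4 lower. This scaling shifted all genes by 0.45 on the WD, where 7631 of 14769 passed as higher and 1343 as lower. At each dose on the WD it shifted all genes by −0.23, so these counts hold part of that shift.

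Among genes that supply ammonia and glutamate, 5 of 8 were lower and 2 higher on the WD. Gls2, the glutaminase of periportal hepatocytes and one of the periportal markers above, had 1699 ± 433 normalized counts in WD saline livers and 10324 ± 239 in ND saline livers (SD, n = 3 each), a fall of 2.64 (SE 0.17, limma adjusted p = 6.36e-09). It rose by 1.67 and 1.47 at the doses on the WD. Slc38a3, a glutamine transporter, fell by 1.19 and, with AN1284, rose by 1.19 and 0.96. The higher ones were Glul, the glutamine synthetase of pericentral hepatocytes, at 0.44, and Gpt2, an alanine aminotransferase, at 0.53, so the genes of this group did not move as a unit.

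Among 6 genes of aspartate, fumarate and malate 3 were lower on the WD. Got1, the cytosolic aspartate aminotransferase, had 1280 ± 132 counts in WD saline livers and 10032 ± 1277 in ND saline livers (SD, n = 3 each), and its fall of 2.97 (SE 0.24, limma adjusted p = 7.49e-08) exceeded that of every gene of the cycle. AN1284 on the WD raised it by 1.92 and 1.64, and it fell by 1.11 (limma adjusted p = 0.0137) at 1 mg/kg/day on the ND. Fh1, the fumarase, fell by 1.17 in the diet comparison, AN1284 raised it by 0.63 and 0.60 on the WD, and on the ND it fell by 0.59 and 0.45 with the drug. Of 4 genes listed for bicarbonate and the state of CPS1 3 were lower on the WD and 0 higher. The 1 that did not pass, Sirt5, had 438 ± 36.8 counts in WD saline and 365 ± 46.4 in ND saline livers (SD, n = 3 each). Car5a, the mitochondrial carbonic anhydrase that supplies bicarbonate, fell by 1.29 and with AN1284 rose by 1.20 and 1.09. Sirt3, a mitochondrial deacetylase, fell by 0.67 and rose by 0.64 at the lower dose, and its log2 value of 0.41 at the higher dose did not pass. Under scaling by totals the fall of Sirt3 on the WD did not pass (log2 −0.24, limma adjusted p = 0.207).

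Of 6 tested genes of the ornithine and arginine branches 4 were lower on the WD and 1, Arg2, was higher. Slc7a2, a carrier of cationic amino acids, fell by 1.11 and with AN1284 rose by 1.24 and 1.13, and Agmat, an agmatinase, fell by 0.70 and rose by 0.60 and 0.57. Under scaling by totals the fall of Agmat did not pass (log2 −0.27, limma adjusted p = 0.075). Aqp9, a channel of the hepatocyte membrane that passes water, glycerol and urea, was the 1 urea exit gene tested, with a log2 value of −0.09 on the WD (limma adjusted p = 0.513), and of 0.34 (limma adjusted p = 0.0137) under scaling by totals.

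Of 10 genes listed as regulators of the pathway's transcription, the receptor gene Gcgr among them, 8 were lower and 1, Ppara, was higher on the WD. Hnf4a, a nuclear receptor of hepatocytes, had 12699.6 ± 144 counts in WD saline livers and 23720 ± 2356 in ND saline livers (SD, n = 3 each), a fall of 0.90 (SE 0.11, limma adjusted p = 2.83e-06). It rose by 0.66 (SE 0.10, limma adjusted p = 0.000103) and 0.55 (limma adjusted p = 0.00214) at the doses on the WD, and on the ND its log2 values were −0.23 and −0.12. Cebpb, a leucine zipper factor, behaved otherwise. It had 4668 ± 159 counts in WD saline livers, 4548 ± 527 in ND livers given 1 mg/kg/day and 4692 ± 957 in ND livers given 5 mg/kg/day, against 12287 ± 638 in ND saline livers (SD, n = 3 each). Cebpb fell by 1.40 on the WD and by 1.44 and 1.41 with AN1284 on the ND, and its log2 values of 0.38 and 0.35 with AN1284 on the WD did not pass.

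**Figure D4:**
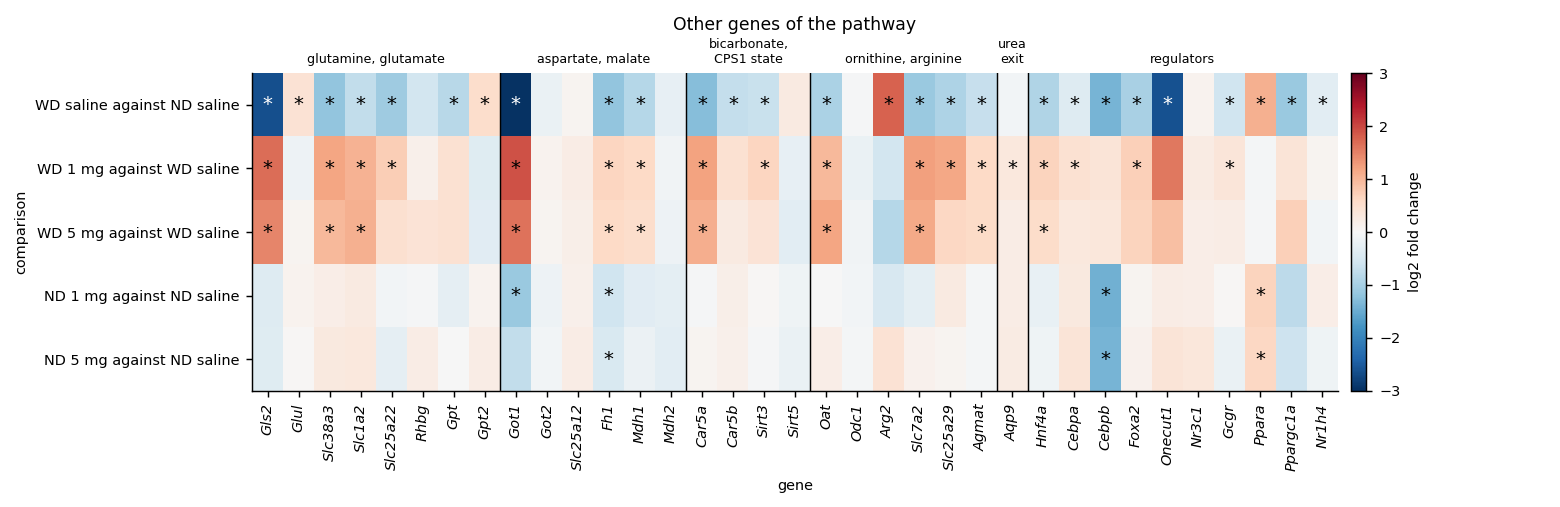
Log2 fold change of 35 other genes of the pathway in 5 comparisons, grouped by role, with the colour scale from −3 to 3. Asterisks mark an adjusted p under 0.05, which on the WD comparison numbered 27, and the lower rows, for AN1284 on the ND, have 4 and 3.

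The genes whose pattern over the 19 libraries was most like the mean z score of the 9 genes were Paics, Dbt, Tdo2, Serpind1, Upp2 and Sult2a8, among 10026 genes with a mean normalized count of at least 100. Their Pearson correlations were 0.970 for Paics, a purine synthesis enzyme, 0.959 for Dbt, a subunit of the branched-chain keto acid dehydrogenase, and 0.949 for each of Tdo2, the tryptophan dioxygenase, Serpind1, Upp2 and Sult2a8. Upp2, a uridine phosphorylase, averaged 262 ± 108 normalized counts in WD saline livers and 4336 ± 1563 in ND saline livers (SD, n = 3 each). These correlations are a description over libraries that share the diet and drug groups and their scaling.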

How the data were processed

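RNA-seq libraries of 19 mouse livers were compared. Per the submitters' notes the authors used cutadapt 1.18 for trimming, TopHat2 2.1.1 for alignment to GRCm38 and HTSeq 0.6.0 for counting. The deposited table gives read counts, with question marks in place of values for 6252 of 54838 genes, and counts divided by the size factors of DESeq2 1.22.1. Its columns of fold changes and p-values between groups were not used. The normalized values were tested on a log scale, and no count model was run.

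Genes with a normalized count of at least 10 in at least 3 libraries (14743) were tested with limma 3.58.1 (trend and robust variance, R 4.3.3) on log2(normalized count + 1), in 1 model of 6 groups with 11 comparisons. Simulated data were used to test the script. Alternatives were pseudocounts of 0.5 and 5, no filter, a mean of at least 50, scaling by totals or the 75th percentile, voom, only the groups compared, a replicate block and leaving out each library. All 9 genes are named in the comparison of the diets and in those of each dose with saline. In the other comparisons some are given only within counts or ranges. Of each subgroup of the list of other pathway genes, the 2 with the smallest p on the WD are given with values, and others mentioned were chosen after their values were seen. One gene of that list is not reported here. Exon lengths are of GENCODE M21. The genes and lists were chosen with earlier results of these data known. No labels tie libraries to the sequencing runs, so batches could not be examined.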

Additional observations from a re-analysis of the deposited data

Results flagged for a closer look

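Nags in the WD AN1284 1 mg/kg/day group had 1 liver, replicate 1 at 1615 normalized counts, far below the other 3 at 2074 to 2123, and the gap was 0.904 of the range of the group. This gap exceeds the 95% limit of Dixon's test for 4 samples, which chance does in about 1 group in 20, and 9 genes were examined.

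The effect of AN1284 at 1 mg/kg/day differed between the diets by the interaction test of limma. The log2 differences, WD minus ND, were 1.85 for Cps1, 1.45 for Otc, 1.79 for Ass1, 1.73 for Asl, 1.58 for Arg1, 0.64 for Nags and 1.06 for Slc25a15. At 5 mg/kg/day they were 1.30 for Cps1, 1.29 for Otc, 1.61 for Ass1, 1.42 for Asl and 1.27 for Arg1. The Nags difference at 1 mg/kg/day did not pass under scaling by totals (log2 0.24, limma adjusted p = 0.216). The interactions at both doses share the saline livers of each diet.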

How the results depend on the processing

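Apart from leaving out a library, 891 values of single genes under the alternatives kept their direction and side of the threshold in 868 cases, lost a call in 19, gained one in 3 and reversed in 1, Slc25a13 on the WD under scaling by totals (0.11), and 13 uncalled values changed sign. The fragile calls were those of AN1284 1 mg/kg/day on the ND, where the number of the 9 genes passing was 1 with no filter on low values (Ass1) and 0 under scaling by totals, with voom and with only the groups compared. For WD AN1284 5 mg/kg/day against ND saline it was 3 under scaling by totals. With 1 library left out, the number of the 9 genes passing was 0 to 2 for AN1284 1 mg/kg/day on the ND. It was 7 to 8 for the WD, 7 to 8 at 1 mg/kg/day and 7 at 5 mg/kg/day on the WD, 4 to 5 for each dose against ND saline, 7 for the interaction at 1 mg/kg/day and 5 to 6 at 5 mg/kg/day.

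Over all genes, scaling by totals gave 3155 genes for 5 mg/kg/day on the WD (432 higher and 2723 lower), 1556 for 1 mg/kg/day on the ND (1418 higher and 138 lower), and 5355 and 5005 for the interactions at 1 and 5 mg/kg/day, with median shifts of −0.41 and −0.39 in the last 2. Voom gave 864 for 5 mg/kg/day on the ND, and only the groups compared gave 80 for 1 mg/kg/day on the ND. For 5 against 1 mg/kg/day on the ND the 75th percentile gave 3, voom 2, only the groups compared 0 and the replicate block 3. With 1 library left out the ranges over all genes were 275 to 1112 for 1 mg/kg/day and 497 to 2164 for 5 mg/kg/day on the ND, 1 to 17 between these, 2176 to 3864 (1 mg/kg/day) and 991 to 1461 (5 mg/kg/day) on the WD, 0 to 5 between these, 2990 to 4833 for 5 mg/kg/day on the WD against ND saline and 1962 to 3193 for the interaction at 5 mg/kg/day. The cause was not tested.

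Replicate numbers did not pair the mice. Of 15 pairs of groups 1 had all same-numbered correlations above 0.1, and their median was 0.01. With the replicate block the number of the 9 genes passing was 8 on the WD, 8 and 7 for the doses on the WD and 4 for WD AN1284 1 mg/kg/day against ND saline, where replicate 4 no longer contributes. For AN1284 1 mg/kg/day on the ND it was 1, since the block lost both Otc (limma adjusted p = 0.0569) and Ass1 (0.0577) and brought in Arg1 (0.0495).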
